A study of Caenorhabditis elegans with 2 samples.

Results

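Chromatin immunoprecipitation with sequencing (ChIP-seq) of the tagged forkhead factor FKH-6 in Caenorhabditis elegans late embryos gave 5220 regions whose summit lay inside a coding exon and over 500 bp from a gene start, out of 26141 regions on the nuclear chromosomes (19.97%). They were taken from the authors' list called on both replicates pooled, by position alone. A region was included when its summit, the position of its highest enrichment, fell in the coding sequence (CDS) of any transcript of a protein-coding gene and lay over 500 bp from the annotated 5′ end of every protein-coding, tRNA, snoRNA, snRNA, ncRNA or piRNA gene. Another 1873 coding summits lay within 500 bp of such an end and were not included. The worms were strain OP78 (unc-119(ed3) III; wgIs78), a transgenic line in which FKH-6 carries a C-terminal GFP-FLAG tag, and both biological replicates share that genotype. Whole hermaphrodite embryos were collected 5.5 hours after synchronization by egg bleaching, chromatin was sheared by sonication, and the immunoprecipitation used an antibody against GFP. There was 1 group of 2 replicates, so no comparison between conditions was possible, and control libraries were not analysed here. The age of the animals beyond this stage is given as unknown, and whole embryos were used, so the cells that hold FKH-6 were not separated from the rest.

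FKH-6 belongs to the forkhead family, winged-helix transcription factors that read A/T-rich DNA, and in C. elegans it is known for its role in the development of the somatic gonad. Transcription factors usually act from promoters and enhancers, which in this compact genome lie mostly between genes or in introns. Coding exons instead hold the codons of proteins, and their base composition follows the protein and its codon use. The cuticle collagens, secreted proteins of the worm's exoskeleton made by the epidermis, are an extreme case: their triple helix is built of short repeats that start with glycine (codons GGN), often followed by proline (codons CCN).

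Of the 5220 coding exon regions, 14 were in the authors' reproducible list, which is the pooled list cut by the irreproducible discovery rate, a measure of how well ranks agree between replicates. That is 0.268% (95% Wilson interval 0.160 to 0.450%), against 732 of the 20921 other regions (3.50%) and 2.85% of all nuclear pooled regions. The 746 nuclear regions of the reproducible list were the 746 of highest signal in the pooled list, so membership there and a high signal are 1 measure and not 2. The sequences of 11 of the 14 are shown because they come from the reproducible list and show what the sequence around such a summit looks like. Each is the summit base with 50 bp to either side, from RefSeq's WBcel235 assembly (ce11), written 5′ to 3′ on the coding strand of the named gene. Capitals mark GGNCCN, the letters of a glycine codon followed by a proline codon when they are in frame; the frame was not examined.
nurf-1 (chrII:14406838-14406938, plus strand): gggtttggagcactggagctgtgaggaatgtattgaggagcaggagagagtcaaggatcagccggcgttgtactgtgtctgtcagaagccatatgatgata
pks-1 (chrX:5429514-5429614, plus strand): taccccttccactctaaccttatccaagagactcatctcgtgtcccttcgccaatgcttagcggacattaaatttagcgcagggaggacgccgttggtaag
col-83 (chrII:11044361-11044461, minus strand): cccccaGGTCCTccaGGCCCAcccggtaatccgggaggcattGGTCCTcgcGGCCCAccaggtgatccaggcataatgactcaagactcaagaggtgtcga
ntl-2 (chrII:4373084-4373184, minus strand): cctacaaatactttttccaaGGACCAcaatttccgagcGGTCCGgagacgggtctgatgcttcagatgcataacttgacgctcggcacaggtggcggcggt
cut-2 (chrV:13415701-13415801, plus strand): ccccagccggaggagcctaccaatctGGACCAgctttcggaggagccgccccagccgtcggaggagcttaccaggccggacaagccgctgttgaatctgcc
col-91 (chrIII:8262753-8262853, minus strand): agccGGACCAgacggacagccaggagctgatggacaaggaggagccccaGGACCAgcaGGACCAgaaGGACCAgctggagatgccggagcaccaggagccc
col-77 (chrII:8358613-8358713, minus strand): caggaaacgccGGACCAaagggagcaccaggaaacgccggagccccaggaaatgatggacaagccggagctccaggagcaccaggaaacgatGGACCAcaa
rol-1 (chrII:12175485-12175585, plus strand): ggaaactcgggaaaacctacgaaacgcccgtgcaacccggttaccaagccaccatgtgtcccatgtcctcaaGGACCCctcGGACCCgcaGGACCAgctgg
bca-2 (chrIV:17099260-17099360, minus strand): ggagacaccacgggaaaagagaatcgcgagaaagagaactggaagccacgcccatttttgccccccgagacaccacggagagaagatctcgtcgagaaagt
fipp-1 (chrV:4373174-4373274, plus strand): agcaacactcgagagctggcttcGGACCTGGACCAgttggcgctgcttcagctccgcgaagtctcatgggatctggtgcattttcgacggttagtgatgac
Y39G8B.2 (chrII:13975255-13975355, minus strand): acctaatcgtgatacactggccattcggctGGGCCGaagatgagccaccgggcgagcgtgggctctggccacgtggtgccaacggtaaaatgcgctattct

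By these letters, the windows at the collagen genes col-83 and col-91 held 4 copies of GGNCCN each, that at rol-1 held 3, and those at col-77, ntl-2 and fipp-1 held 2 each. The windows at cut-2 and Y39G8B.2 held 1 each. The windows at nurf-1, pks-1 and bca-2 held none. GC content in the 11 windows ran from 50.495% at nurf-1 and pks-1 to 66.3% at cut-2 and col-91.

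The reproducible coding exon regions were led by nurf-1, which encodes a subunit of the NURF chromatin remodelling complex. Its summit, in exon 22 of 25 coding exons, had a signal of 122 in the pooled list and ranked 315 among nuclear regions. No source used here gives the scale of the authors' signal, which is used only within a list. In replicate 1 the nurf-1 region had a signal of 60.3 and rank 265, and in replicate 2 a signal of 56.5 and rank 582. The second was in pks-1, a polyketide synthase gene, with a pooled signal of 120 and rank 325. Replicate 2 placed it at rank 220 with a signal of 79.97, while the nearest summit of replicate 1 was 13236 bp away, so it rested on replicate 2. The fourth, in ntl-2, which encodes a subunit of the CCR4-NOT deadenylase complex, had a pooled signal of 115. It ranked 187 in replicate 2 (signal 84.98) and 2144 in replicate 1 (signal 32.4).

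Cuticle genes made up much of the rest. The collagen genes col-83, col-91, col-77 and sqt-3 had pooled signals of 115, 100.1, 100.1 and 92.9. In replicate 1 col-83 ranked 520, col-91 ranked 544, col-77 ranked 1066 and sqt-3 ranked 3693. In replicate 2 their ranks were 371 for col-83, 765 for col-91, 501 for col-77 and 425 for sqt-3. All 4 were therefore found in both replicates, with sqt-3 far lower in replicate 1. The cuticlin gene cut-2, whose product is another protein of the cuticle, had a pooled signal of 100.96, with rank 345 in replicate 1 and 944 in replicate 2. The summits of col-91, cut-2 and sqt-3 lay in coding exon 2, and those of col-83 and rol-1 in coding exon 5 of 5.

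The other reproducible members were W09G3.6 (pooled signal 96.3), rol-1 (94.3), cest-27 (93.6), bca-2 (91.9), fipp-1 (91.1) and Y39G8B.2 (89.2). Of these bca-2 encodes a carbonic anhydrase, an enzyme that interconverts carbon dioxide and bicarbonate. The gene rol-1 was in none of the gene lists made by name, so the collagen counts below leave it out. Its window nevertheless held 3 copies of GGNCCN. The cest-27 region rested on replicate 1, where it ranked 496, and the nearest summit in replicate 2 was 113 bp away at rank 3072, just past the 100 bp allowed for a match. In all, 12 of the 14 had a summit within 100 bp in both replicates. Among the 746 regions of highest signal in a replicate's own list were 5 of the 14 in replicate 1 and 10 in replicate 2.

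**Figure D1:**
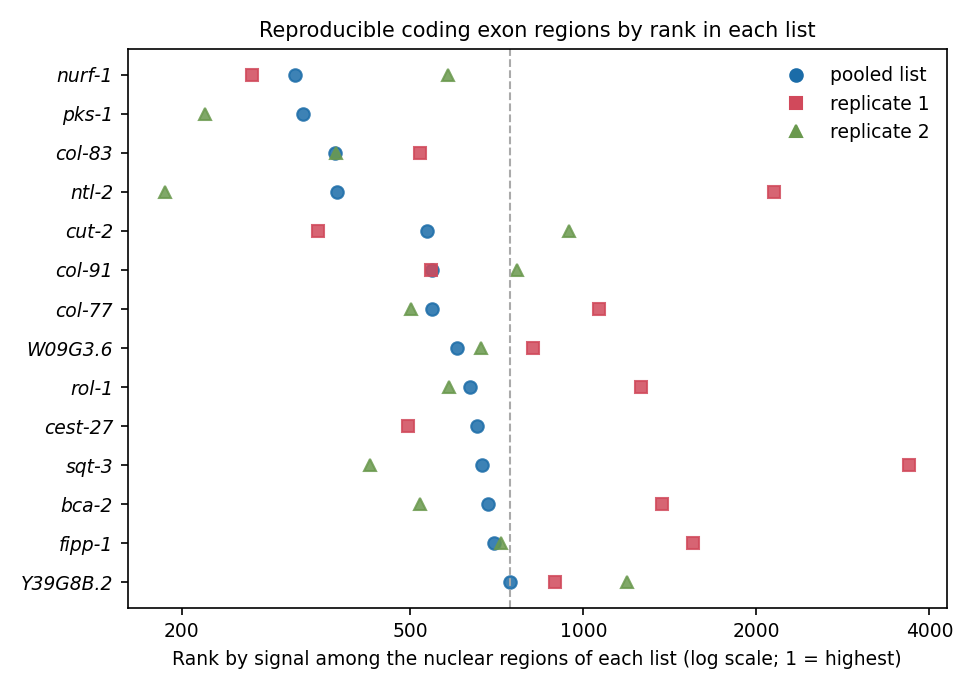
Rank by signal (log scale, 1 is the highest) of each of the 14 reproducible coding exon regions in the pooled list (circles), replicate 1 (squares) and replicate 2 (triangles); a missing symbol means no summit within 100 bp, and the dashed line stands at rank 746, the length of the nuclear reproducible list. Pooled ranks run from 315 to 744, while sqt-3 and ntl-2 rank 3693 and 2144 in replicate 1.

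Just below the reproducible list stood col-122 (pooled signal 88.7), bli-1 (88.4) and col-140 (86.8), all cuticle collagen genes. They were followed by rimb-1 (86.5), which encodes a RIM-binding protein of synapses, set-16 (86.1), a histone methyltransferase gene of the MLL type, and daf-16 (85.2), which encodes the forkhead factor FOXO. The daf-16 summit ranked 713 in replicate 1 and 1546 in replicate 2, and it lay 286 bp from an annotated transcript start. Transcript starts within a gene were not part of the selection, which used 1 end per gene. Over all coding exon regions 540 (10.3%) lay within 500 bp of a transcript start, against 7.02% of the coding bases that met the same position rule. Among the 14 reproducible members 3 did, nurf-1 at 388 bp, sqt-3 at 366 bp and bca-2 nearer still. Whether these are sites of initiation cannot be told from the annotation, since many annotated starts in C. elegans are trans-splice sites.

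The rest of the set was weak. The median signal of the 5220 coding exon regions was 34.3 (lowest 24.97, highest 122), close to the median of 35.1 in the other regions, whose highest nuclear value was 874. A deposited −log10 q-value of at least 2 was reached by 33 coding exon regions (0.632%, 95% Wilson interval 0.451 to 0.886%), by 4.99% of the other regions and by 4.12% of all nuclear pooled regions. At values of at least 1 the shares were 4.62% of coding exon regions and 10.3% of the others. The pooled list includes background by design, as the deposited descriptions state, so most of these regions are entries of a permissive list and not called peaks.

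Replicate support was nearer to that of the other regions. Replicate 1 had a summit within 100 bp of 2381 coding exon regions (45.6%), against 49.1% of the others and 48.4% of all nuclear pooled regions. Replicate 2 had one at 3194 (61.2%), against 61.9% of the others and 61.7% of all. Both replicates had one at 1201 (23.01%, 95% Wilson interval 21.9 to 24.2%), against 27.1% of the others and 26.3% of all. Neither had one at 846 (16.2%), against 16.1% of the others. The pooled list was made from these replicates, so a match is no independent evidence, and the intervals cover counting error only. Across the 1201 coding exon regions matched in both, the signals of the 2 replicates had a Spearman rho of 0.211, against 0.493 over 5663 other regions. Pooled signals spread less over all 5220 coding exon regions (SD 11.7) than over all 20921 other regions (SD 26.8). The spread of each replicate's signals over the matched regions was not measured, and its part in these values was not tested. Regions of 1 pair of libraries are not replicates.

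Support went with rank inside the set. Of the 50 coding exon regions of highest signal, 82% were matched in both replicates and mean GC content was 58.6%. In ranks 501 to 1000 the share was 62.8% with a mean GC content of 50.3%. In ranks 4001 to 5220 it was 1.07% with a mean GC content of 44.9%, and 38.7% of those regions had no match in either replicate. Cuticle collagen genes, as listed by name, held 34% of the first 50, 3.2% of ranks 501 to 1000 and 0.902% of the last 1220. Since the pooled signal is made from both libraries, its link with the match in both is partly by construction.

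The density of coding exon regions was close to that of the genome. Coding bases that met the position rule, called eligible coding sequence here, came to 18.1 Mb, or 18.1% of the nuclear genome, and they held 288 regions per Mb. The remaining sequence held 255 per Mb and the nuclear genome as a whole 261 per Mb. The replicates' own lists gave 3800 coding exon regions among 19604 nuclear ones in replicate 1 (19.4%) and 5387 among 26185 in replicate 2 (20.6%). All member regions were 460 bp wide, so most reached past the exon that held the summit, and the median region had 78.3% of its length in coding sequence. Of the summits, 883 lay in sequence that is coding in some transcripts of the gene and not in others, and 162 lay also within another protein-coding gene.

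Density hardly changed across the 500 bp limit. Members nearest to it, at 501 to 600 bp, numbered 315, or 282 per Mb of coding sequence at that distance, and the coding summits on its other side, at 401 to 500 bp, numbered 333, or 287 per Mb. Between 1001 and 1500 bp density was 251 per Mb, and over 5000 bp from any start it was 401 per Mb, where mean GC content at summits was 49.2%. Reproducible regions were nearer to starts: 8 of the 14 lay at 501 to 1000 bp, a distance that held 27.7% of all members. With 14 regions these counts are small.

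**Figure D2:**
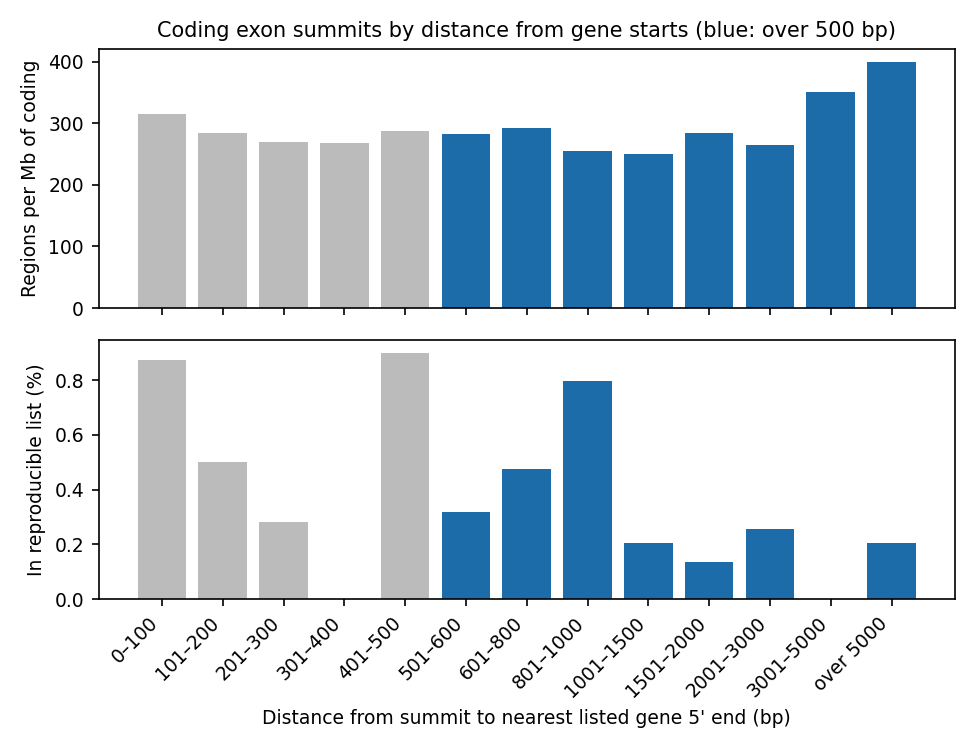
Upper panel: coding exon summits per Mb of coding sequence, by distance from the nearest listed gene 5′ end in bp; lower panel: the share of those summits in the reproducible list in percent. Blue bars are the regions over 500 bp away and grey bars the nearer ones; density is 282 per Mb at 501 to 600 bp and 287 per Mb at 401 to 500 bp.

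GC content set the members apart from the sequence they were drawn from. The window of 50 bp to either side of a coding exon summit averaged 47.6% ± 7.8 GC (SD over 5220 regions), against 41.4% over every eligible coding base, 41.4% at the other regions and 35.4% over the nuclear genome. The replicates' own lists gave 47.0% in replicate 1 and 46.9% in replicate 2. The 14 reproducible members averaged 59.1% ± 6.5. Windows of 50% GC or more made up 37.7% of the members and 10.4% of eligible bases. Depth and the GC response of the libraries are not known from region lists, and their part in these values was not tested.

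In the pooled list density rose with GC content along the whole scale. Eligible coding sequence under 30% GC held 85.9 regions per Mb, that of 40 to 45% held 203, that of 50 to 55% held 797 and that of 65% or more held 2695. Replicate 1 alone gave 109 per Mb under 30% and 2134 per Mb at 65% or more, and replicate 2 gave 91.6 and 2209 per Mb in those bins. Sequence outside coding exons showed the same order, with 106 regions per Mb under 30% GC, 1187 per Mb at 50 to 55% and 1818 per Mb at 65% or more. In every bin below 60% GC the coding sequence had fewer regions per Mb than the non-coding sequence. The bin of 65% or more rested on 72 coding exon regions in 0.0267 Mb. The share matched in both replicates was 11.7% under 30% GC and 56.9% at 65% or more, and every one of the 33 members whose −log10 q-value was at least 2 lay at 50% GC or more. Signal followed GC content with a Spearman rho of 0.315 across the members, against 0.337 across the other regions, a description over regions that share their libraries.

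**Figure D3:**
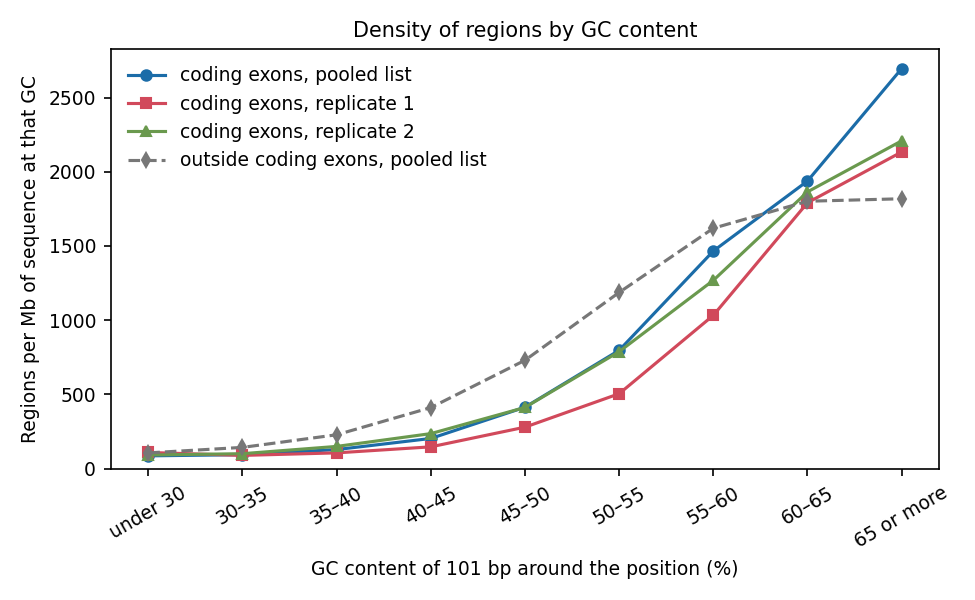
Regions per Mb of sequence, by the GC content in percent of the window of 50 bp to either side of each position, for coding exon regions in the pooled list, in replicate 1 and in replicate 2 (solid lines) and for pooled regions outside coding exons (dashed line). Density in coding exons is 85.9 per Mb under 30% GC and 2695 per Mb at 65% or more, and the sequence outside them runs between 106 and 1818 per Mb.

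Within genes, most members lay in internal coding exons, as did most eligible sequence. Of the 5220, 149 lay in the first coding exon (2.85%, against 1.93% of eligible bases), 4074 in an internal one (78.0% against 81.6%), 981 in the last (18.8% against 16.2%) and 16 in the only coding exon of a gene. The 14 reproducible members were split between 7 internal and 7 last coding exons. By exon rank, density was 419.6 per Mb in coding exon 1, 339.7 in exon 2, 293 in exon 3 and between 254 and 291 in exons 4 to 10. In 5 equal parts of the CDS, density was 299, 275, 286, 298 and 284 per Mb in order along the gene, a narrow range. Exon length made a larger difference: exons of up to 100 bp held 178 regions per Mb, those of 301 to 500 bp held 333, those of 1001 to 2000 bp held 446 and those over 2000 bp held 307. The mean GC content at the summits rose from 40.8% in the shortest exons to 49.9% in those of 501 to 1000 bp. It was then level, at 49.4% in exons of 1001 to 2000 bp and 49.6% in those over 2000 bp, where density was lower. The part of GC content in these densities was not tested.

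The members fell in 3596 genes, or 20.4% of the 17669 protein-coding genes with eligible sequence. In 2586 of these there was 1 region, and 1010 genes (28.1%) had 2 or more, of which 69 had 5 or more. Regions of 460 bp could overlap: the lowest gap between neighbouring coding summits was 199 bp, and 746 gaps were under 1000 bp. Counts per gene, here and below, are therefore of regions and not of separate sites. Longer genes were hit more often: 4.39% of genes with up to 300 eligible bp had a region, against 72.4% of those with over 5000 bp, while density per Mb was 274 and 313 in these classes. Replicate 1's own list hit 2914 genes and replicate 2's hit 3690, with 1638 genes in both, or 56.2% of the genes of replicate 1 and 44.4% of those of replicate 2.

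Several of the 10 genes with the most regions encode large structural proteins of muscle and epidermis. First was vab-10, a spectraplakin that links the cytoskeleton to epidermal attachments, with 18 regions in 22982 eligible bp and a highest signal of 62.6. The perlecan gene unc-52, a basement membrane proteoglycan under the muscles, had 12, and so did unc-89, which encodes the giant muscle protein obscurin. The talin gene tln-1, an adaptor between integrins and actin, had 11, the dystrophin gene dys-1 had 10, and ketn-1, the gene of the titin-like protein kettin, had 9. Others were din-1 (10), a corepressor gene that acts with the nuclear receptor DAF-12, let-2 (9), a type IV collagen gene, nrps-1 (9), a nonribosomal peptide synthetase gene, and eel-1 (9), an E3 ubiquitin ligase gene. Per kb of eligible sequence, let-2 had 1.82 regions, tln-1 1.59, unc-52 0.937, vab-10 0.783 and unc-89 0.495, so the order by count was not the order by density. Outside the 10, the giant muscle gene ttn-1 had 7 regions in 54431 eligible bp, or 0.129 per kb, with 0 matched in both replicates. Matched in both replicates were 4 of the 18 regions of vab-10, 2 of the 12 of unc-52 and 5 of the 11 of tln-1.

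Summits along these genes could fall only in coding exons. The spread of eligible sequence along each gene was not measured, so the positions are given without a reference. In vab-10 all 18 summits lay between 21.5 and 55.1 kb from the gene's 5′ end, in a gene of 57.6 kb. The summit at 21.5 kb was in coding exon 1 of 25 of the transcript used for exon rank. In unc-52 summits ran from 7.71 to 36.7 kb. A pair of overlapping regions, of signal 62.9 and 55.2, had summits within 19.5 to 19.8 kb, both in coding exon 15. In tln-1 the 3 highest signals, 73.0, 72.8 and 67.5, stood at 14.97, 9.37 and 16.5 kb. In let-2 the 2 highest, 81.0 and 77.6, stood at 6.36 and 3.36 kb. In nurf-1, with 8 regions, the reproducible one stood at 16.2 kb and the next highest, of signal 75.1, at 8.51 kb.

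**Figure D4:**
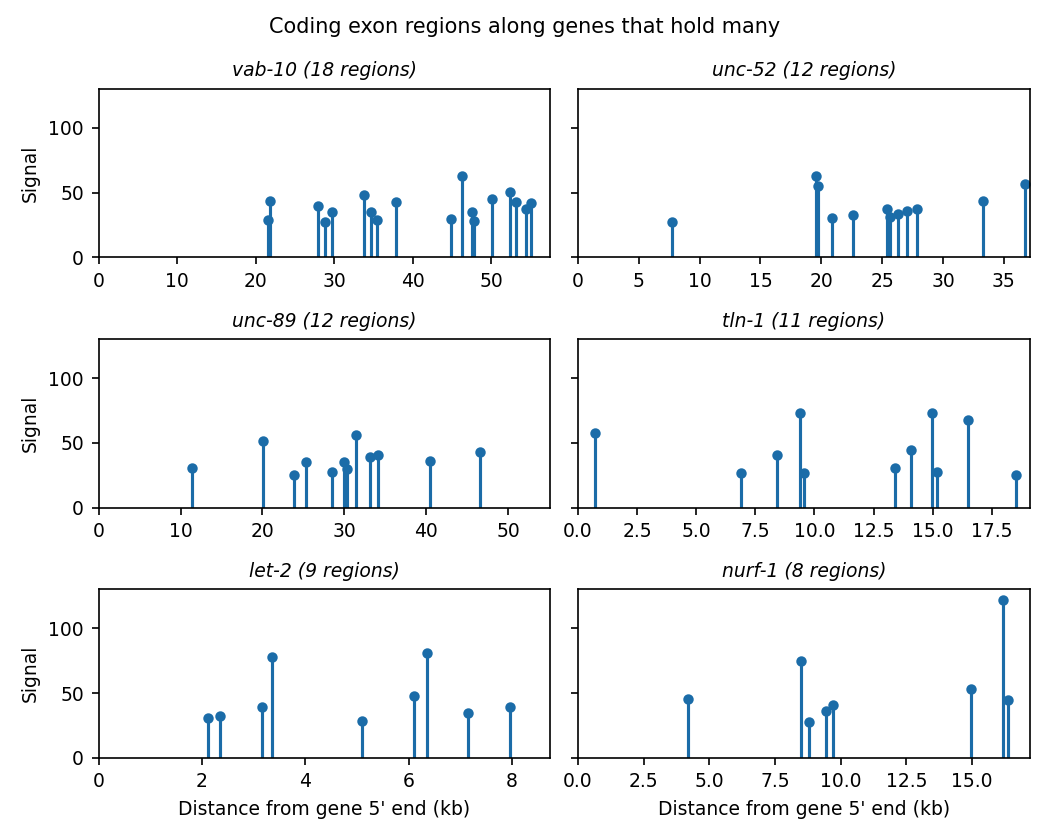
Signal in the pooled list (authors' scale) of each coding exon region, by distance in kb from the 5′ end of its gene, in 6 genes that hold many; each panel spans its gene. Regions can lie only in coding exons, which are not drawn. The 18 regions of vab-10 lie beyond 21.5 kb, and nurf-1 holds the highest of all, 122 at 16.2 kb.

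Gene groups, taken by name, are described here by their counts and densities, and no difference between them was tested. The cuticle collagens had the highest density among lists with 10 or more regions. They held 149 regions in 65.9% of 170 genes with eligible sequence, 1518 per Mb, against 281 per Mb in the coding sequence of all other genes. Other coding sequence of the same GC content, in bins of 5 points, held 1339 per Mb. The eligible sequence of these genes had a mean GC content of 55.8%. They made up 2.85% of the members on 0.541% of eligible sequence, 25 of the 100 members of highest signal and 4 of the 14 reproducible ones. These counts follow the list made by name, which leaves out rol-1. Replicate 1 alone gave 125 regions (1273 per Mb) and replicate 2 gave 131 (1334 per Mb), and 50.3% of the 149 were matched in both replicates, against 23.01% of all members. Densities at the same GC content, here and below, were computed for the pooled list only. Over all eligible sequence replicate 1 held 209 regions per Mb and replicate 2 held 297, so a replicate's value is not comparable with them. The letters GGNCCN stood within that window in 130 of the 149 (87.2%). Collagen genes resemble one another: 14 of the 149 (9.40%) had over 10% of their 32-letter words elsewhere in the genome, against 3.70% of all members and 10.5% of the other regions, and reads there could come from more than 1 gene.

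Lists of extracellular matrix, sarcomere, and actin and tubulin genes held more regions per Mb than other coding sequence at their GC content. Basement membrane genes, which include let-2, unc-52 and mig-6, a papilin gene, had 46 regions in 10 of 13 genes, 572 per Mb against 430 in other coding sequence at that GC content. Genes of sarcomeres and giant muscle proteins had 88 regions in 25 of 39 genes, 448 against 369 per Mb. Replicate 1 alone gave 360 per Mb in basement membrane genes and 275 in sarcomere genes, and replicate 2 gave 534 and 438, with no GC-matched value computed per replicate. The highest signals there were 70.6 in dys-1, 68.3 in unc-15, the paramyosin gene, and 56.4 in unc-89. Cuticle and apical matrix genes other than collagens had 83 regions in 43 of 127 genes, 344 against 312 per Mb, with cut-2 (100.96), cutl-13 (65.03) and mlt-11 (63.6) as the highest. That list, made by name, includes the spectraplakin gene vab-10, which held 18 of the 83 regions on 22982 eligible bp. Its density without vab-10 was not computed, so the difference may rest on that gene. Actin and tubulin genes had 13 regions, 689 against 497 per Mb, led by tbb-2 (69.1) and tba-2 (66.5). Matched in both replicates were 17.4% of basement membrane regions, 18.2% of sarcomere regions and 16.9% of the non-collagen cuticle and apical matrix regions. These shares were below the 23.01% of all members, while that of actin and tubulin regions was 30.8%.

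Genes of general cell functions, listed here with vitellogenin and C-type lectin genes, stood on both sides of their GC-matched density. Chromatin regulators had 81 regions in 40 of 91 genes, 386 against 365 per Mb, led by set-16 (86.1), swsn-1 (74.7), which encodes a SWI/SNF subunit, and jmjd-2 (64.9), a histone demethylase gene. Of those regions 33.3% were matched in both replicates. The list, made by name, leaves out nurf-1, which had 8 regions and a highest signal of 122, so these counts do not cover all chromatin genes. Translation factors had 20 regions, 444 against 440 per Mb, with eef-1B.2 (62.7), eif-4A3 (61.4) and eif-2A (58.2) as the highest. Chaperones had 28, 465 against 330 per Mb, with cct-5 (65.9), hsp-90 (56.8) and pdi-2 (56.0) first, and replicate 1 alone gave 382 per Mb and replicate 2 gave 283. Ribosomal protein genes had 7 regions in 7 of 44 genes, with rpl-3 at 65.2, on 0.00784 Mb of eligible sequence, too little for a density of use. RNA helicases and small RNA factors had 37, 328 against 336 per Mb, led by csr-1 (64.8) and alg-1 (60.6), both Argonaute genes. The tRNA synthetase genes had 11, 209 against 282 per Mb, with wars-1 at 54.1; replicate 1 alone gave 95.03 per Mb and replicate 2 gave 361, on either side of the pooled value. Vitellogenin genes had 10, 386 against 492 per Mb, with vit-6 at 49.98 the highest, and replicate 1 alone gave 232 per Mb and replicate 2 gave 270.5. The median vitellogenin region had 9.56% of its 32-letter words elsewhere in the genome. Kinases and phosphatases named by class had 26, 318 against 295 per Mb, and kin-34 was highest at 60.1. C-type lectin genes had 54, 316 against 323 per Mb, with clec-125 at 64.1 and 8 regions in clec-78.

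Chemoreceptor, F-box, detoxification, ion channel and motor genes held fewer than their GC-matched density. Chemoreceptor genes had 77 regions in 75 of 1265 genes, 98.7 per Mb, against 296 per Mb in all other coding sequence and 159 per Mb in other coding sequence at their GC content, whose mean was 36.7%. The highest was srg-20 at 70.9. F-box and BTB/MATH genes had 23 regions in 18 of 426 genes, 80.1 against 177 per Mb at their GC content, and math-33 was highest at 46.7. Detoxification genes had 25 in 23 of 206 genes, 99.2 against 203 per Mb, with ugt-50 at 54.995, and replicate 1 alone gave 63.5 per Mb and replicate 2 gave 147. Ion channel genes had 61, 163 against 220 per Mb, with best-8 (76.7), trp-4 (71.6) and egl-2 (64.4) as the highest. Cytoskeletal motor genes had 25, 180 against 262 per Mb, led by the kinesin gene osm-3 (58.4).

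Among transcription factor families, homeobox and nuclear hormone receptor genes were close to their GC-matched density. Homeobox genes had 20 regions in 17 of 86 genes, 287 against 279 per Mb, with ceh-88 at 51.6. Nuclear hormone receptor genes had 48 regions in 40 of 270 genes, 196 against 214 per Mb, with nhr-25 at 62.1, and replicate 1 alone gave 106 per Mb and replicate 2 gave 180. Forkhead genes had 6 regions in 5 of 14 genes, 519 against 324 per Mb. Their eligible sequence was 0.0116 Mb, too little for a density of use. The highest were daf-16 at 85.2, pha-4, the organ identity factor of the pharynx, at 43.3 and lin-31 at 43.0. Core histone genes had 0 regions in the pooled list, against 1 in each replicate's own list, on 0.000267 Mb of eligible sequence in 4 genes.

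**Figure D5:**
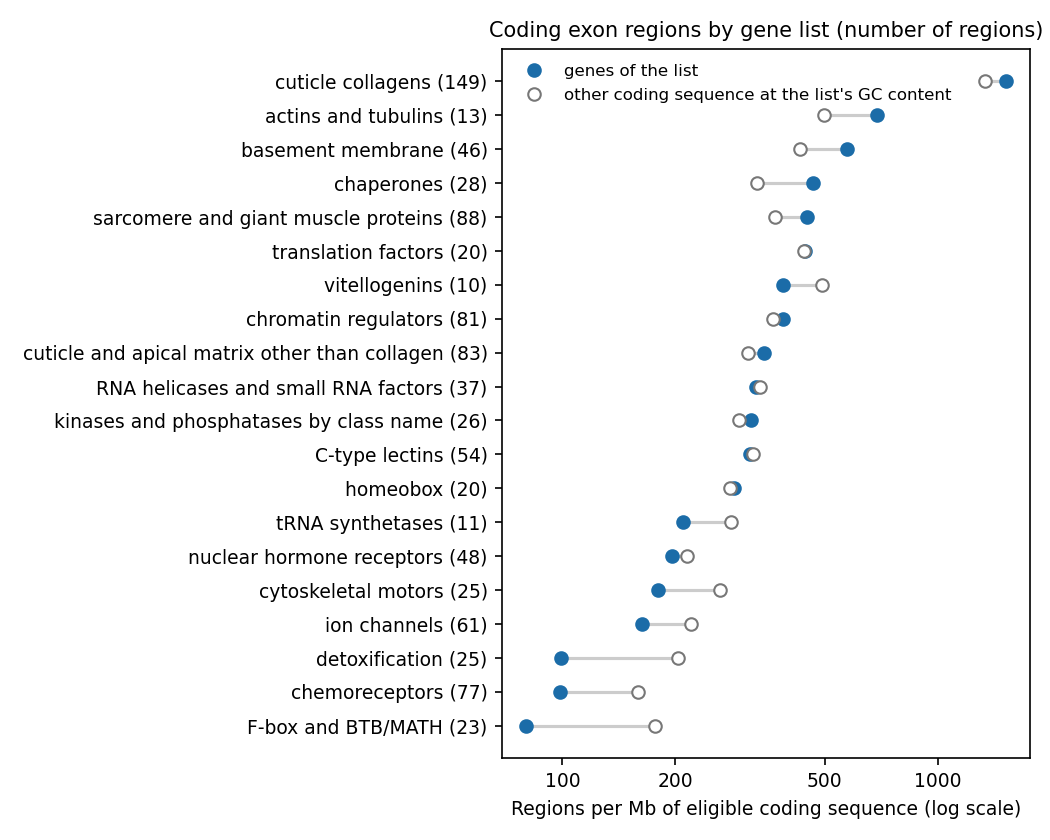
Coding exon regions per Mb of eligible coding sequence (log scale) in each gene list with 10 or more regions (filled circles; number of regions in brackets), and in other coding sequence at that list's GC content (open circles). Cuticle collagens stand at 1518 against 1339 per Mb, and F-box and BTB/MATH genes at 80.1 against 177 per Mb.

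The gene fkh-6 itself held no coding exon region. Nearby, ntl-2 held 3, on chromosome II. Its reproducible summit at 4373134 lay 10272 bp from the start of fkh-6, and the others had signals of 28.4 and 34.5. The gene mlt-7 held 1, with a signal of 62.3, 19013 bp from that start.

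Short sequence words at the summits differed less once GC content was matched. The forkhead core GTAAACA, searched on both strands within 50 bp of the summit, stood in 18 members (0.345%, 95% Wilson interval 0.218 to 0.544%), against 0.672% of eligible bases, 0.433% of eligible bases at the members' GC content and 1.20% of the other regions. It stood in 0 of the 14 reproducible members, a count too small to measure such shares. GAGAGA stood in 5.94% of members, 5.59% of eligible bases at the same GC content and 12.04% of the other regions. GGGCGG stood in 2.84% of members, 2.80% at the same GC content and 4.41% of the other regions. TGATAA stood in 5.94% of members, 5.99% at the same GC content and 6.26% of the other regions. GGNCCN, whose core reads the same on both strands, stood in 17.1% of members, 16.7% at the same GC content and 11.9% of the other regions, and in 47 of the 100 members of highest signal. No background was computed for the other regions, whose mean GC content was 41.4% against 47.6% at the members. Their shares therefore have no reference and show no enrichment. A match to letters is a description and not a binding site.

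By chromosome, density ran from 222 per Mb of eligible sequence on chromosome V to 355 on chromosome III. It was 322 per Mb on chromosome I, 316 on II, 281 on IV and 253 on X. Replicate 1 alone placed III highest (250) and V lowest (171), and so did replicate 2 (355 and 231). Mean GC content of eligible sequence was 40.2% on V and 41.97% on III. Of the 14 reproducible members, 6 were on II, 3 on V, 2 on I and 1 each on III, IV and X.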

How the data were processed

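Region lists from ChIP-seq of FKH-6-GFP in 2 biological replicates of late embryos were used in ce11, which is WBcel235: 1 list per replicate, 1 called on both replicates pooled, and the reproducible list. Per the deposited descriptions, the first 3 keep background as input to the irreproducible discovery rate. The deposited signal (column 7) is the authors' own value, and no source used here gives its scale; the deposited −log10 q-value (column 9) was likewise set by the authors. The summit offset (column 10) is the authors' score of position in bp. No source used here names the caller, the aligner or the threshold. The lists hold no read counts, so depth is unknown.

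Genes came from Ensembl release 115 and sequence from RefSeq, both WBcel235. The sequences of 3 reproducible members are not reported here. Summits within 100 bp matched. GC content was taken over the summit base and 50 bp to either side, and backgrounds were computed over every eligible coding base. Shares have 95% Wilson intervals, which cover counting error only; neighbouring regions are not independent. Exon rank is that of the transcript with the longest CDS among those holding the summit. A gene list's GC-matched density weights other coding sequence by the list's bases in 5-point bins of GC content. Of each region's 32-letter words, the share found elsewhere in the genome was counted. Python 3.11.15, NumPy 2.4.6, SciPy 1.17.1 and Matplotlib 3.10.9 were used. The position rule was checked against a slower independent version at simulated positions. Matching within 100 bp was checked on planted summits, and GC content on a made-up sequence. The other procedures were not tested in this way.

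The members and the 23 gene lists, defined by name patterns, were chosen with earlier results of these data known. The chemoreceptor pattern was corrected after values were seen, because it had matched a serpin gene. GC-matched densities, the words searched, the 32-letter words and the tally of transcript starts were also added after the data were seen. Genes were named by rule: those of reproducible members, of the 15 members of highest signal, the 10 genes with most members, up to 3 genes of highest signal in each list, and those by fkh-6. The genes nurf-1 (for its 8 regions), bli-1, col-140, rimb-1, ttn-1 and clec-78 (for its count) were described after their values were seen.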

Additional observations from a re-analysis of the deposited data

How the results depend on the processing

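Of 79 values recomputed under 14 settings, 49 were within their limit of change (1.5 times for counts and densities, the Wilson interval for shares, 0.101 points, the SD between the replicate lists, for mean GC content) and 30 moved. With a limit of 250 bp mean GC content was 47.4%. Beyond 1000 bp, 0.159% of coding exon regions were reproducible, 0.424% reached a −log10 q-value of 2 and 15.8% were in the last coding exon. With the starts of all transcripts, mean GC content was 47.4% and the share in the last coding exon 20.04%. With the whole window around the summit in CDS, the share at a −log10 q-value of 2 was 0.912%, that matched in both replicates 25.7%, mean GC content 49.6% and genes with 2 or more regions 666. Among pooled regions above the median signal there were 2505 regions, 138 per Mb and 392 genes with 2 or more, with 0.559% reproducible, 1.32% at a −log10 q-value of 2, 44.6% in both replicates, 49.6% GC and 20.2% in the last coding exon. Matching within 50 bp gave 13.9% in both replicates, and within 200 bp 32.8%. At a −log10 q-value of 1 the share was 4.62%. GC content was 48.7% with a narrower window of 25 bp to either side and 46.2% with a wider one of 100 bp.

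Taking each replicate's list alone gave 3800 to 5387 regions, 209 to 297 per Mb, 594 to 1038 genes with 2 or more, 0.260 to 0.368% reproducible, 0 to 0.817% at a −log10 q-value of 2, 21.7 to 30.4% matched in the other replicate, 46.9 to 47.0% GC and 16.5 to 19.3% in the last coding exon. The 0 is that of replicate 1, whose highest −log10 q-value was 1.86. The causes of these shifts were not tested, except that a stricter setting leaves fewer regions by its construction. No paired analysis was possible because there is 1 group and no test. Depth is unknown, the control libraries were not analysed here, and 2 replicates give no estimate of spread between embryo samples beyond the values of each list.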
